A study of Homo sapiens with 20 samples.

Results

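CD47, its transcript isoforms, its SIRP family partners SIRPA and SIRPG, and QPCTL, the enzyme that modifies CD47 for SIRP binding, were examined in Jurkat T lymphoblasts with and without CD47. The members were the rows of the gene and isoform tables that carry these 4 gene names. They comprised 4 of 60719 genes and 25 of 232184 isoforms, with 6 isoforms of CD47, 4 of SIRPA, 7 of SIRPG and 8 of QPCTL. RNA sequencing covered 20 libraries. WT Jurkat, which grew from a human T cell leukemia, gave 10, and JinB8, a somatic mutant of Jurkat deficient in CD47 and called CD47- here, gave the other 10. In each line, untreated cells were sampled only at 1 h, and cells under 3 treatments were sampled at 1, 3 and 6 h. These were plate-bound antibodies to CD3 and CD28 (CD3+CD28), the same antibodies with 1 µg/mL thrombospondin-1 (CD3+CD28+TSP1), and thrombospondin-1 without antibodies (TSP1). All cells were held in serum-free HITES medium. CD47- is a single mutant line compared with its parent, so any other difference between these 2 lines cannot be told apart from the loss of CD47. Each condition was sequenced once per line, and the labels do not say which libraries came from separate cultures. The p-values therefore measure the spread between these libraries only.

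CD47 is a widely expressed membrane protein with an extracellular immunoglobulin-like domain, several membrane-spanning segments and a short cytoplasmic tail whose length is set by alternative splicing. Its immunoglobulin-like domain binds SIRPα, the SIRPA product, an inhibitory receptor of myeloid cells that recruits the phosphatases SHP-1 and SHP-2 and restrains phagocytosis. It also binds SIRPγ, the SIRPG product, which T cells carry and which has little cytoplasmic tail of its own. Thrombospondin-1 is a secreted ligand of CD47 on T cells. QPCTL, a Golgi glutaminyl cyclase, forms the pyroglutamate at the amino terminus of CD47 that SIRPα recognizes.

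The splice choices that set the CD47 tail are shown first because the isoform results turn on them. The runs are the end of the coding region with its stop codon, 5′ to 3′, read from GENCODE version 44 transcripts on the minus strand of chromosome 3 in GRCh38. Capitals mark exons that are absent from CD47-201.
CD47-201: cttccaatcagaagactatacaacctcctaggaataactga
CD47-205: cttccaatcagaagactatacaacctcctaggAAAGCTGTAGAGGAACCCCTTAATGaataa
CD47-202: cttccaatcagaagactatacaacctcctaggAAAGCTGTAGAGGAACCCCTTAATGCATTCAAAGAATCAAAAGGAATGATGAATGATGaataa
CD47-203: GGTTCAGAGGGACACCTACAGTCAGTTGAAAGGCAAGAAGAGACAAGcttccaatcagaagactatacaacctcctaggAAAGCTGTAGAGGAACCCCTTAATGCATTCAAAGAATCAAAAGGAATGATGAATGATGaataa
CD47-201 skips both small tail exons, of 25 and 33 bases, and joins an exon of 32 bases directly to the last exon. CD47-205 keeps the exon of 25 bases, and CD47-202 keeps both. CD47-203 also holds an exon of 47 bases that the other 5 isoforms lack. The complete short-tail isoform CD47-201 is 5228 bases long with 305 codons, and the complete long-tail isoform CD47-202 is 5292 bases long with 323 codons. CD47-203 and CD47-205 are incomplete models of 469 and 538 bases, CD47-204 is a retained intron of 6796 bases without a coding region, and CD47-206 is an incomplete model of 766 bases whose first exon starts 831 bases upstream of CD47-202.

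**Figure D1:**
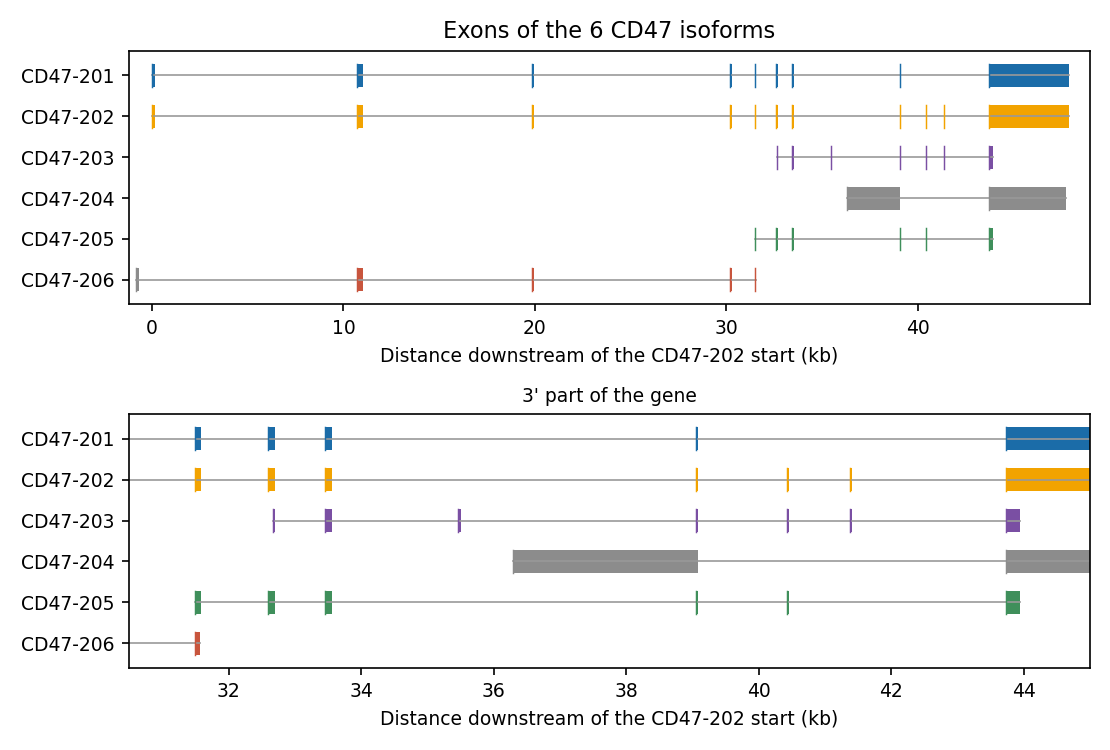
Exon maps of the 6 CD47 isoforms, drawn to scale as kb downstream of the CD47-202 start. Boxes are exons, grey boxes mark the retained intron model CD47-204 and the noncoding first exon of CD47-206, and the lower panel enlarges the 3′ part, where the small tail exons separate CD47-201 from CD47-202.

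The promoters of CD47 and QPCTL are given as the region from 250 bases before to 50 bases after the start in RefSeq's table for GRCh38.p14, which matched 2 of the 4 members. The CD47 promoter, chr3:108090982-108091281 on the minus strand, is printed with its NRF1 motif in capitals because NRF1 is among the factors listed for CD47 below. It reads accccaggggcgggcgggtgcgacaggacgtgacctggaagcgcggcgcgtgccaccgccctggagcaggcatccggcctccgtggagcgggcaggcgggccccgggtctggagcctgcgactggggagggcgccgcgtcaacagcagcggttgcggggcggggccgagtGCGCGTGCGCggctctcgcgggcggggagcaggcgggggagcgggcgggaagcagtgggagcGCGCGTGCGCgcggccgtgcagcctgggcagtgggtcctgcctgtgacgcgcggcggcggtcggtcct. The motif searched, on both strands, was GCGCA followed by any 1 base and then GCGC. It occurred 2 times in the CD47 window, and 5.78% of the 35116 promoters of the same length held it at least once. The window has 45 CG dinucleotides against a median of 14 over all promoters, which is as many as or more than in 97.1% of them. It also held 6 GC boxes (GGGCGG), a motif present in 45% of promoters, and no CCAAT. The QPCTL promoter, chr19:45692416-45692715 on the plus strand, is printed with CCAAT on either strand in capitals for contrast. It reads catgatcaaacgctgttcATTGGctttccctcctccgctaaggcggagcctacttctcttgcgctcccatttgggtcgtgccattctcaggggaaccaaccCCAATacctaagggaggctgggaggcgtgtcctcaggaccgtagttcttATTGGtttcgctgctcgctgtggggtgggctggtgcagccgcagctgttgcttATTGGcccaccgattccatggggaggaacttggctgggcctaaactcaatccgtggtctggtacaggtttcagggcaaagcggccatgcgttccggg. It held 4 CCAAT matches, a motif found in 34.6% of promoters, and 15 CG dinucleotides. Neither window held the E-box CACGTG, the AP-1 motif TGACTCA or TATAAA. A match describes letters in a window and not a bound site.

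Total estimated counts were between 16107921 and 31737616 per library, and 3 counts, taken here as the limit of detection, corresponded to 0.0978 to 0.155 CPM, the counts scaled to the size of the library. In the comparison of the lines, 6596 of 16327 genes tested were called at an adjusted p under 0.05 by edgeR, or 40.4%, so a call alone sets no member apart. The cells carried T cell transcripts in both lines. The summed level of 8 T cell markers was 1890 to 2620 CPM in WT and 1590 to 2400 CPM in CD47- libraries. Of these 8, 4 were higher in CD47-, among them CD2 (1.43) and CD7 (1.22), and 2 were lower, ZAP70 (-0.92) and PTPRC (-0.52), on the log2 scale by edgeR. Among B cell, NK cell and fibroblast or epithelial markers, 3 each, CD79A was lower (42.1 CPM in WT, 6.74 CPM in CD47-), and NCAM1 (0.739 and 3.85 CPM) and COL1A1 (1.95 and 4.3 CPM) were higher. The part of these markers in the results below was not tested. NCAM1, at 0.401 CPM in its lowest WT library, could pass the filter on low counts through CD47-. The summed level of 8 myeloid markers, a check because myeloid cells are the known site of SIRPA, was 1.23 to 7.71 CPM in WT and 0.991 to 6.47 CPM in CD47- libraries. Of these 8 markers, 7 averaged under 1 CPM in both lines. Only CD14 and CD68 passed the filter on low counts and were tested, and neither was called. In these bulk libraries, a change in the share of cells that carry a transcript cannot be told apart from a change in transcript per cell.

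CD47 mRNA was about halved in CD47- cells and was still abundant there. CD47 (chr3:108043091-108091862, minus strand) was measured in the 4 WT libraries at 1 h at 363, 358, 336 and 371 CPM, in the order untreated, CD3+CD28, CD3+CD28+TSP1 and TSP1. With the 3 treatments in the same order, WT held 253, 260 and 289 CPM after 3 h and 312, 292 and 327 CPM after 6 h. CD47- held 152, 163, 152 and 165 CPM after 1 h, 134, 124 and 151 CPM after 3 h, and 144, 141 and 145 CPM after 6 h. No CD47- library reached the lowest WT library, and CD47 was lower in CD47- in 10 of 10 pairs matched for treatment and time. The means were 316 ± 42.1 CPM in WT and 147 ± 12.6 CPM in CD47- (SD, n = 10 each). The log2 fold change was -1.10 (SE 0.0784) with an adjusted p of 1.05e-10 by edgeR. Separation of all 10 libraries of each line was seen for 1875 of 16327 genes, or 11.5%. A transcript level does not measure the protein at the cell surface, and the transcript of this line was counted on the same gene model as that of WT.

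SIRPG showed the reverse pattern and was higher in CD47- cells in every matched pair. For SIRPG (chr20:1629152-1657779, minus strand), the WT libraries held 1.85, 1.86, 1.87 and 1.8 CPM after 1 h, 2.58, 3.88 and 3.93 CPM after 3 h, and 6.19, 5.35 and 5.87 CPM after 6 h. The CD47- libraries held 17.2, 18.4, 18.6 and 17.5 CPM after 1 h, 17.7, 19.5 and 18.9 CPM after 3 h, and 27.1, 26.1 and 25.3 CPM after 6 h. The lowest CD47- library was above the highest WT library at every time. Over all times, the libraries of the lines did not overlap for 11.5% of genes tested. The means were 3.52 ± 1.77 CPM in WT and 20.6 ± 3.9 CPM in CD47- (SD, n = 10 each). The log2 fold change was 2.54 (SE 0.234) with an adjusted p of 7.53e-09 by edgeR. Fitted on 1 time at a time, the log2 difference was 3.27 for 1 h, 2.44 for 3 h and 2.19 for 6 h, and each was called.

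SIRPA was at or near the limit of detection in WT cells and low but present in every CD47- library. SIRPA (chr20:1894167-1940592, plus strand) was listed at 0 in 5 of 10 WT libraries, and the other 5 held at most 4 counts each. In the order of conditions used above, WT held 0, 0.0477, 0 and 0 CPM after 1 h, 0.181, 0.0852 and 0.101 CPM after 3 h, and 0, 0 and 0.0399 CPM after 6 h. CD47- held 1, 1.24, 1.42 and 1.13 CPM after 1 h, 1.2, 1.25 and 0.612 CPM after 3 h, and 1.16, 0.609 and 0.642 CPM after 6 h. All 10 CD47- libraries were above all 10 WT libraries, and the lines were separate in this way for 11.5% of genes tested. For SIRPA the separation follows from the filter described below and is no support. Summed over the libraries, 10 counts in WT stood against 247 in CD47-, a ratio of 24 after scaling by depth (95% exact interval 12.8 to 50.7, counting error only). The edgeR log2 fold change was 4.42 (SE 0.434) with an adjusted p of 1.25e-08, and its size rests on these few WT counts. SIRPA passed the filter on low counts only through CD47-, whose libraries held 14.61 to 34.75 counts each, so a gene tested in this way had to differ and the p is no support of its own. By time, the WT libraries held 1, 8.35 and 1 counts in sum at 1, 3 and 6 h, against 123.67, 67.34 and 55.97 in CD47-, too few in WT for a fold at 1 time. SIRPA isoforms share 231 windows of 125 bases, the read length, with SIRPB1, between 5.18% and 6.17% of each isoform, so some reads could be assigned to either gene. No such window of CD47, SIRPG or QPCTL occurred in another gene.

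QPCTL was lower in CD47- cells by a smaller amount, with overlap between the lines. For QPCTL (chr19:45692403-45703989, plus strand), WT libraries held 3.86, 4.92, 5.57 and 5.29 CPM after 1 h, 3.35, 3.02 and 2.89 CPM after 3 h, and 4.08, 3.97 and 3.83 CPM after 6 h. Those of CD47- held 3.53, 3.74, 3.14 and 3.01 CPM after 1 h, 2.33, 1.97 and 2.16 CPM after 3 h, and 2.94, 4.02 and 2.94 CPM after 6 h. The CD47- library was the lower of the pair in 9 of 10 pairs. The log2 fold change was -0.45 (SE 0.152) with an adjusted p of 0.0207 by edgeR, at means of 4.08 ± 0.917 CPM in WT and 2.98 ± 0.676 CPM in CD47- (SD, n = 10 each). The call was lost with no scaling of libraries (-0.34), with no filter on low counts (-0.44), at 3 h alone (-0.51) and at 6 h alone (-0.25). SNRPD2, which runs antisense to QPCTL and overlaps it by 167 bases, averaged 171 CPM in WT against 155 CPM in CD47- and was not called. Whether counting used strand is not given in the sources used here.

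**Figure D2:**
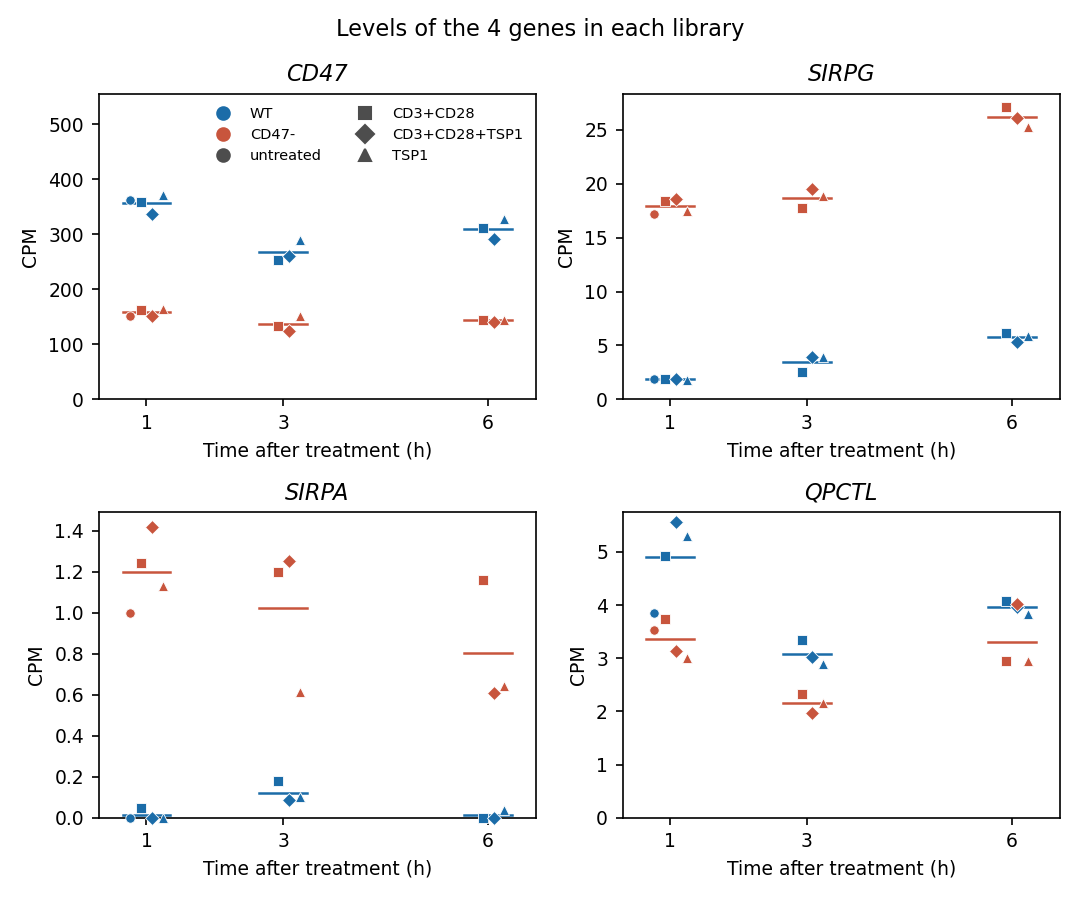
Levels of the 4 genes in CPM on linear axes against time after treatment (h), with WT libraries in blue, CD47- libraries in red, 1 symbol per treatment and a bar at the mean of each line and time. The lines are separate for CD47, SIRPG and SIRPA, and they overlap for QPCTL.

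Set against each other per transcript length, as TPM, a level corrected for transcript length and library total, the 4 genes had the order CD47, SIRPG, QPCTL and SIRPA by their means over all times in both lines. CD47 was at 90 ± 24.3 TPM in WT and 51.7 ± 12.1 TPM in CD47-, far above the other 3 genes. SIRPG was at 2.36 ± 1.12 TPM in WT and 16.6 ± 1.96 TPM in CD47-. QPCTL was at 1.92 ± 0.333 TPM in WT and 1.69 ± 0.393 TPM in CD47-, and SIRPA was at 0.00986 ± 0.0131 and 0.277 ± 0.089 TPM (SD, n = 10 each). SIRPG and QPCTL, neighbours in this order, lay within each other's spread in WT cells, where their order turned with time. At 1 h QPCTL was above SIRPG in WT, at 2.18 ± 0.311 against 1.32 ± 0.133 TPM (SD, n = 4 each), and at 6 h SIRPG was above QPCTL, at 3.7 ± 0.41 against 1.91 ± 0.0764 TPM (SD, n = 3 each). In CD47- cells all 4 levels stood apart. With the length of the longest isoform of each gene in place of the isoform lengths, CD47 was at 50.5 ± 9.01 TPM in WT and 28.3 ± 4.06 TPM in CD47-, and the order of the 4 genes over all times was the same.

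Levels also moved with time, and SIRPG moved differently in the 2 lines. The contrasts of 3 h and of 6 h with 1 h share the 1 h libraries of a line, and the model held terms for treatment. No untreated library was taken after 1 h. Here and for the isoforms below, time in culture therefore cannot be told apart from the duration of treatment. SIRPG rose in WT cells by 0.91 on the log2 scale at 3 h (SE 0.159, adjusted p = 0.000628) and by 1.65 at 6 h (SE 0.15, adjusted p = 8.23e-07) by edgeR. At 1 h all 4 WT libraries, including the untreated one, were within 1.8 to 1.87 CPM, below each WT library at 3 and 6 h. In CD47- cells the difference at 3 h was 0.04 (adjusted p = 0.787) and the rise at 6 h was 0.53 (SE 0.113, adjusted p = 0.00136). The interaction, the CD47- change minus the WT change, was -0.86 at 3 h (SE 0.197, adjusted p = 0.0283) and -1.12 at 6 h (SE 0.189, adjusted p = 0.00139) by edgeR. Over all genes, interactions were called for 4.28% at 3 h and for 16.6% at 6 h. The interaction at 3 h was lost under limma voom and without any 1 of 9 libraries, at values of -0.88 to -0.71, and the one at 6 h was called without any 1 of the 20.

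CD47 and QPCTL fell at 3 h in both lines. The change of CD47 was -0.41 in WT (SE 0.0632, adjusted p = 0.000231) and -0.23 in CD47- cells (SE 0.0637, adjusted p = 0.0106) by edgeR, where 34.3% of all genes were called in WT and 38% in CD47-. The change of QPCTL was -0.77 in WT (SE 0.168, adjusted p = 0.00292) and -0.61 in CD47- cells (SE 0.177, adjusted p = 0.0157). Neither interaction passed the test. At 6 h, when 50.5% of genes in WT and 53% in CD47- were called, the CD47 change was -0.19 in WT (adjusted p = 0.0199) and -0.16 in CD47- cells (adjusted p = 0.0463). QPCTL at 6 h was at -0.41 in WT (adjusted p = 0.0504) and at 0.00 in CD47- (adjusted p = 0.988), with no call on either. SIRPA in CD47- cells was at -0.35 at 3 h (adjusted p = 0.449) and at -0.68 at 6 h (adjusted p = 0.125).
Per transcript length, the CD47 means at 1, 3 and 6 h were 105, 95.8 and 63.7 TPM in WT and 59.7, 56.2 and 36.4 TPM in CD47-. By this measure 6 h was lowest in both lines. With the longest isoform's length they were 56.4, 44.5 and 48.4 TPM in WT and 31.1, 29.5 and 23.3 TPM in CD47-. Changes in TPM were not tested. The 2 CD47 calls at 6 h were weak, and under limma voom neither they nor the CD47 call in CD47- at 3 h passed. In CD47- the call was lost without any 1 of 14 of the 20 libraries (-0.18 to -0.11), and in WT without CD3+CD28 at 1 h, CD3+CD28+TSP1 at 6 h or TSP1 at 6 h (-0.19 to -0.18). In CD47- cells at 3 h, the CD47 call was lost without CD3+CD28 at 1 h (-0.22) or at 3 h (-0.21), and that of QPCTL without CD3+CD28 at 1 h (-0.49) or CD3+CD28+TSP1 at 3 h (-0.48).

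By a model with 1 effect per treatment over all times in each line, the treatments moved none of the 4 genes past the threshold. Untreated cells were sampled only at 1 h, so effects against untreated cells at 3 and 6 h were not tested. For SIRPA the absence of calls is a result in CD47- only. SIRPA held 10 counts in sum over the WT libraries, so its tests in WT and between the lines could not decide. In 48 tests, 4 genes by 12 contrasts of activation or TSP1 within the lines and between them, edgeR called 0, DESeq2 0 and limma 0, with an unadjusted p under 0.05 in 2, 2 and 1 of them. Over all genes, edgeR called 0% in 10 of these contrasts, 0.00612% in the interaction of TSP1 against untreated and 0.0919% in CD3+CD28+TSP1 against TSP1 in WT, and the contrasts are narrow, each of which rests on 3 libraries per treatment or on the 1 untreated library of a line. The lowest unadjusted p was for CD47, which was lower by 0.15 on the log2 scale in CD3+CD28+TSP1 than in TSP1 in WT (SE 0.0631, adjusted p = 0.88) and also in CD47- (SE 0.0637, adjusted p = 0.292). In every WT and CD47- set of 1 time, the TSP1 library held the highest CD47 level of the set. The fitted differences ranged from -0.15 to 0.14 for CD47, from -0.09 to 0.17 for SIRPG and from -0.61 to 0.47 for QPCTL.

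The lower CD47 level in CD47- cells was seen for both complete coding isoforms. Of the 25 member isoforms, 12 passed the filter on low counts, all 6 of CD47, 3 of SIRPG and 3 of QPCTL, and an isoform could pass through the line in which it is high. Over all isoforms tested, 15.1% were called between the lines. CD47-201 averaged 152 CPM in WT and 66.5 CPM in CD47-, and changed by -1.19 on the log2 scale (SE 0.104, adjusted p = 3.61e-08) by edgeR. CD47-202 averaged 94.1 and 42.5 CPM, a change of -1.15 (SE 0.142, adjusted p = 5.34e-06). The retained intron model CD47-204 averaged 35.5 and 22.8 CPM (-0.64, adjusted p = 0.00726), and CD47-205 averaged 5.5 and 2.11 CPM (-1.37, adjusted p = 0.000585). CD47-206 averaged 24.3 and 12.6 CPM (-0.94, adjusted p = 0.0599), and it was called when matched pairs were a block (-0.83, adjusted p = 0.0113), by DESeq2 and where 1 CPM was required in every library. CD47-203 was at 1.81 and 1.51 CPM (-0.25, adjusted p = 0.83). The share of each isoform within its gene did not pass the test between the lines for any of the 12. Isoform usage was called for 0 of them by edgeR and 0 by limma, with an unadjusted p under 0.05 for 1 and 2, against 0.647% of all isoforms called by edgeR and 3.22% by limma.

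CD47-201 was the leading isoform by counts in both lines, with 48.3 ± 4.52% of CD47 counts in WT and 44.8 ± 4.12% in CD47- (SD, n = 10 each). CD47-202 followed with 30.3 ± 2.93% and 28.8 ± 8.72%, then CD47-204 with 11.2 ± 2.2% and 15.4 ± 2.68%, and CD47-206 with 7.8 ± 3.86% and 8.53 ± 3.09%. CD47-205 and CD47-203 were at 1.8 and 0.606% in WT and at 1.44 and 1.03% in CD47-. RSEM divides reads that fit several isoforms by its model, and only 1.74% of the 125-base windows of CD47-201 and 1.39% of those of CD47-202 occur in no other CD47 isoform. For CD47-206 this share was 19.6%, and for CD47-204 it was 41.5%. The order of the isoforms was another per length. When counts were divided by transcript length, CD47-206, a model of 766 bases, held 30.4 ± 11.4% of CD47 in WT and 33.5 ± 9.2% in CD47-, CD47-201 held 31.3 ± 9.89% and 26.8 ± 2.89%, and CD47-202 held 19 ± 4.61% and 17.7 ± 7.64% (SD, n = 10 each). These means pool times with opposite orders. At 1 and 3 h CD47-206 was above CD47-201 by the mean in both lines, with 36.4 and 38% against 28.7 and 21.6% in WT and with 40.8 and 35.6% against 27 and 23.8% in CD47-. At 6 h CD47-201 led, with 44.4% against 14.8% in WT and 29.6% against 21.7% in CD47-. The split between CD47-201 and CD47-202 in turn rests on few reads, mainly over the small tail exons printed above.

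**Figure D3:**
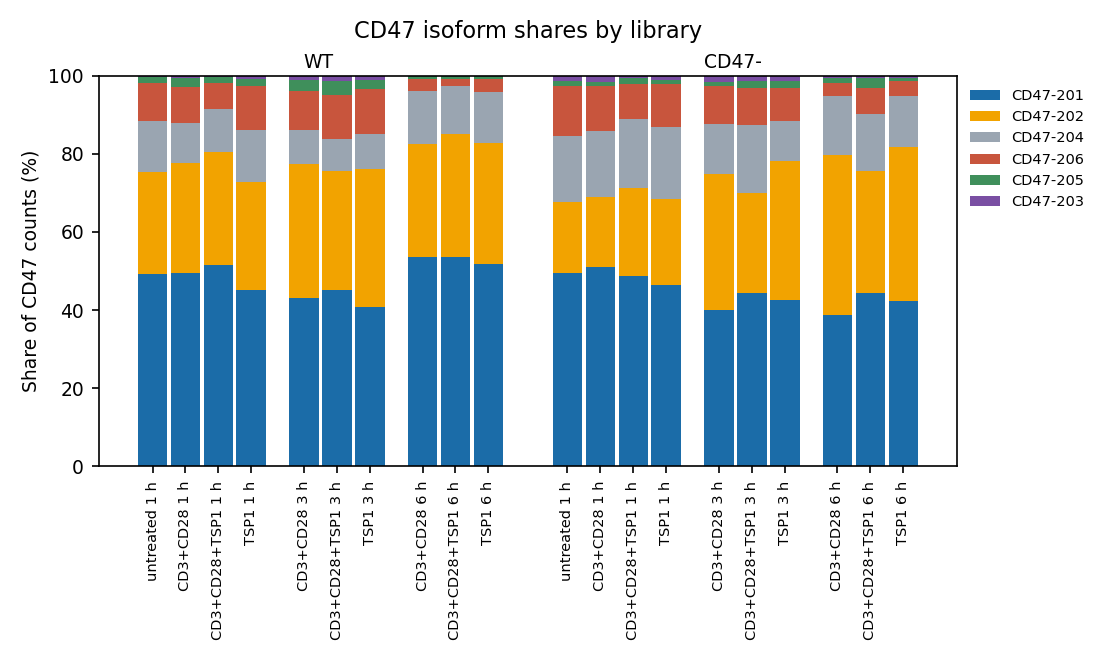
Share of CD47 counts (%) assigned to each of its 6 isoforms in every library, WT at left and CD47- at right, in order of time. CD47-201 and CD47-202 hold most counts in each bar, the CD47-206 band is narrow at 6 h, and the CD47-202 band is wider at 3 and 6 h than at 1 h in CD47-.

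With time, the CD47 isoforms moved apart from each other. Their shares over time were tested after the isoform levels had been seen. CD47-206, the model with the upstream first exon, held 9.62, 9.39, 6.7 and 11.2% of CD47 counts in the WT libraries at 1 h, 10.2, 11.4 and 11.7% at 3 h, and 2.97, 1.63 and 3.23% at 6 h. In CD47- its share was 12.7, 11.4, 8.86 and 10.8% after 1 h, 9.65, 9.64 and 8.55% after 3 h, and 3.27, 6.76 and 3.79% at 6 h. In each line all 3 libraries at 6 h were below all 7 at 1 and 3 h. Its level fell at 6 h against 1 h by 1.95 on the log2 scale in WT (SE 0.282, adjusted p = 0.00118) and by 1.28 in CD47- (SE 0.282, adjusted p = 0.0109) by edgeR, where 14.9% and 17.3% of isoforms were called. The interaction was 0.67 (adjusted p = 0.55), where 0.945% of isoforms were called. Relative to the gene it changed by -1.82 in WT (adjusted p = 0.000181, 1.13% of isoforms called) and by -1.20 in CD47- (adjusted p = 0.046, 1.71% called) by edgeR, and by -1.91 (adjusted p = 3.34e-10) and -1.30 (adjusted p = 6.05e-05) by limma, which called more of all isoforms, 8.38% and 10.1%. The fall of its level in CD47- was lost without CD3+CD28 at 1 h (-1.12), TSP1 at 1 h (-1.20), CD3+CD28 at 6 h (-1.01) or TSP1 at 6 h (-1.13), and its edgeR usage call there without any 1 of 11 libraries (-1.21 to -0.94).

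The mean ratio of long to short tail was highest at 3 h in WT and at 6 h in CD47-. The ratio of CD47-202 to CD47-201 counts in the WT libraries was 0.532, 0.564, 0.564 and 0.614 after 1 h, 0.802, 0.675 and 0.868 after 3 h, and 0.544, 0.585 and 0.597 after 6 h. In CD47- the ratio was 0.363, 0.351, 0.458 and 0.474 after 1 h, 0.873, 0.57 and 0.838 after 3 h, and 1.06, 0.701 and 0.931 after 6 h. All 3 WT libraries at 3 h lay above the other 7 of that line, with a mean of 0.782 against 0.76 in CD47- at 3 h. All 4 CD47- libraries at 1 h lay below all WT libraries, and all 3 at 6 h lay above the WT libraries of that time. No treatment had the lowest ratio in every set. It was the untreated library in WT at 1 h, CD3+CD28 in CD47- at 1 h and in WT at 6 h, and CD3+CD28+TSP1 in the other 3 sets. CD47-202 rose in CD47- at 6 h by 0.74 on the log2 scale (SE 0.143, adjusted p = 0.00547) by edgeR and was at -0.03 in WT (adjusted p = 0.939). The interaction was 0.77 (SE 0.201, adjusted p = 0.127), so a difference between the lines was not called by edgeR, although it was by DESeq2 (adjusted p = 0.00997, 5.03% of isoforms called) and limma (adjusted p = 0.0382, 1.47% called), and by edgeR where 1 CPM was required in every library (0.83, adjusted p = 0.0257). Without CD3+CD28+TSP1 of CD47- at 1 h or at 3 h, edgeR called it as well (1.00 and 0.78). Relative to its gene, CD47-202 rose in CD47- by 0.82 (adjusted p = 0.0353) by edgeR and by 1.21 (adjusted p = 7.14e-08) by limma. The edgeR usage call was lost without any 1 of 9 libraries, at 0.65 to 0.91. The difference between the lines in this usage was 0.72 by edgeR (adjusted p = 0.987) and 0.90 by limma (adjusted p = 0.0084, 0.665% of isoforms called). At 3 h in CD47-, the usage of CD47-202 changed by 0.609 by edgeR (adjusted p = 0.296) and by 0.843 by limma (adjusted p = 0.000332). Of 49951 isoforms, edgeR called 646 there and limma 3194. In WT neither called it. The level of CD47-202 in CD47- at 3 h was not called, except in some alternatives, such as without CD3+CD28+TSP1 at 1 h (0.639) or at 3 h (0.605).

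**Figure D4:**
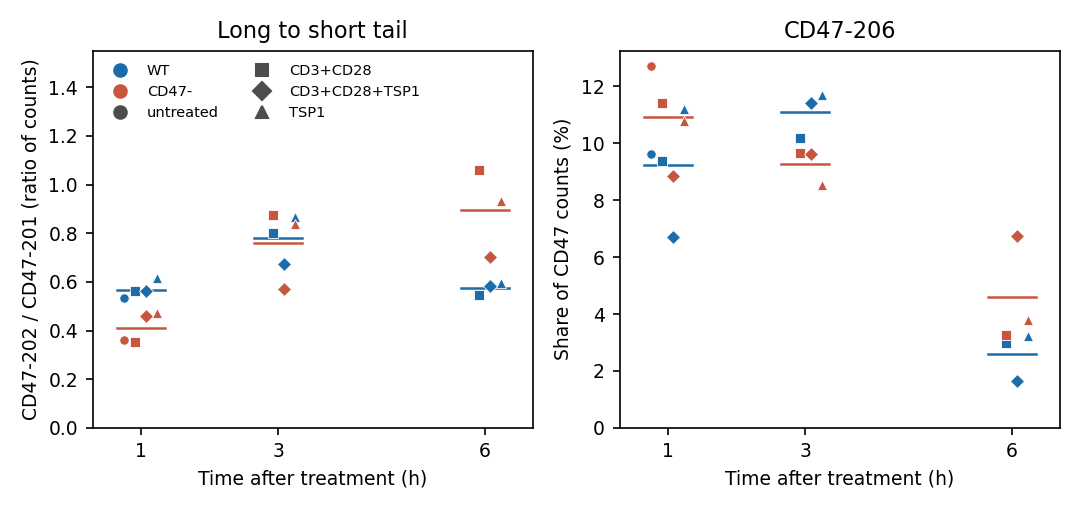
Ratio of CD47-202 to CD47-201 counts (left) and the share of CD47 counts held by CD47-206 in % (right) against time after treatment (h), with 1 symbol per library and a bar at the mean of each line and time. The mean ratio in CD47- goes from 0.411 at 1 h to 0.897 at 6 h, and the mean share of CD47-206 at 6 h is 2.61% in WT and 4.61% in CD47-.

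The other CD47 isoforms moved with time as well. At 3 h CD47-201 fell by 0.53 in WT (adjusted p = 0.00562) and by 0.39 in CD47- (adjusted p = 0.0219), and CD47-204 fell by 0.78 (adjusted p = 0.00358) and by 0.62 (adjusted p = 0.0118), all on the log2 scale by edgeR, with 5.53% and 6.94% of isoforms called. At 6 h in CD47- the changes were -0.31 for CD47-201 (adjusted p = 0.0304) and -0.40 for CD47-204 (adjusted p = 0.0343). In WT they were -0.01 and 0.07 and were not called. The interaction of the levels at 6 h was called for neither isoform. Over the alternative fits it was -0.315 to -0.241 for CD47-201 and -0.492 to -0.418 for CD47-204. In usage, limma called the interaction at 6 h for CD47-201 (-0.728, adjusted p = 0.0286, 0.665% of isoforms called), and edgeR did not (-0.345). Neither called it for CD47-204. Limma also called the usage of CD47-201 in WT at 6 h (0.365, adjusted p = 0.0185, 8.38% called), and edgeR did not (0.122). The minor isoforms CD47-203 and CD47-205 fell in WT at 6 h by 3.71 (adjusted p = 0.00393) and by 1.31 (adjusted p = 0.032). The former is a large change of a scarce isoform, which held at most 0.0742% of CD47 counts in the 3 WT libraries at 6 h. The calls on CD47-201 and CD47-204 in CD47- were each lost without any 1 of 2 to 7 libraries, and that on CD47-205 without any 1 of 5. Without a filter on low counts, the calls on CD47-201 in CD47- at 3 and 6 h, CD47-204 in CD47- at 6 h and CD47-205 in WT were lost, and with 1 line alone the first 3 of these were lost as well.

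The 2 most abundant SIRPG isoforms were both higher in CD47- cells. SIRPG-202, a model of 1716 bases and 387 codons, averaged 1.68 ± 1.15 CPM in WT and 10.3 ± 3.87 CPM in CD47-, a log2 fold change of 2.62 (adjusted p = 5.27e-05) by edgeR. With its lowest WT library at 0.194 CPM, it passed the filter on low counts only with the CD47- libraries, so this p is no support of its own. SIRPG-203, a model of 1042 bases and 170 codons, averaged 1.13 ± 0.629 and 7.9 ± 1.36 CPM, a change of 2.81 (adjusted p = 5.2e-08). None of the 1592 windows of SIRPG-202 occurs in SIRPG-202 alone, so its level rests wholly on the division of shared reads by RSEM, while 13.3% of those of SIRPG-203 and 9.39% of those of SIRPG-204 are their own. SIRPG-204 averaged 0.416 and 1.23 CPM (1.53, adjusted p = 0.195), and with matched pairs as a block it was called (2.16, adjusted p = 0.0308). With time SIRPG-202 rose in both lines. Its WT libraries held 0.685, 0.194, 0.512 and 0.837 CPM after 1 h, 1.61, 2.38 and 1.63 CPM after 3 h, and 2.3, 2.85 and 3.76 CPM after 6 h. Every WT library at 3 and 6 h was above those at 1 h, with a log2 change of 1.95 at 3 h (adjusted p = 0.00948) and of 2.58 at 6 h (adjusted p = 0.000747). The 3 h call was lost without CD3+CD28+TSP1 at 1 h (1.92) or at 3 h (1.78) and under limma voom. In CD47- it rose by 1.02 at 6 h (adjusted p = 0.0454), a call lost without any 1 of 15 libraries (0.82 to 1.19), without a filter on low counts and with upper-quartile factors. SIRPG-203 was at 0.70 in WT at 6 h (adjusted p = 0.396) and at -0.52 in CD47- (adjusted p = 0.479). By limma, its usage at 6 h was called in both lines. It was -2.13 in WT (adjusted p = 0.0333, 8.38% of isoforms called) and -1.66 in CD47- (adjusted p = 6.55e-05, 10.1% called). By edgeR it was -1.25 and -1, with no call. Its mean share of SIRPG counts was 51.6% at 1 h and 27.3% at 6 h in WT, and 52.2% and 24.5% in CD47-. SIRPG-204 was listed at 0 in all 4 WT libraries at 1 h and held 0.285 to 0.49 CPM at 3 h and 0.555 to 1.37 CPM at 6 h.

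The remaining isoforms were scarce. For QPCTL, the protein-coding models QPCTL-201 and QPCTL-202 averaged 1.26 and 1.07 CPM in WT and 1.47 and 0.549 CPM in CD47-, and neither was called (log2 0.22 and -0.95). QPCTL-201 likewise has no window of its own. QPCTL-207, a model marked for nonsense-mediated decay, averaged 0.986 and 0.5 CPM (-0.96, adjusted p = 0.0669) and was called with matched pairs as a block (-1.14, adjusted p = 0.0209) and by DESeq2. The other 5 QPCTL models averaged at most 0.53 CPM in either line. Of the 4 SIRPA isoforms, SIRPA-201 held 187.17 of the counts in CD47-, SIRPA-202 and SIRPA-204 held 29.9 each, and SIRPA-203 was at 0 in every library. SIRPG-201 was at 0 in every library, and SIRPG-205, SIRPG-206 and SIRPG-207 averaged at most 0.806 CPM in either line.

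Of the SIRP genes beside SIRPG and SIRPA, only SIRPB1 passed the filter on low counts, and it was higher in CD47- too. SIRPB1, an activating receptor gene that lies 9091 bases from SIRPG, had a log2 difference of 2.09 (SE 0.282, adjusted p = 2.64e-06) by edgeR, and it shares the windows named above with SIRPA. Its mean was 1.42 ± 0.698 CPM over the WT libraries, the lowest at 0.42 CPM, and 6.12 ± 2.24 CPM over those of CD47-. At that WT level it could pass the filter through CD47-, which limits its p. SIRPB2 was too low to be tested and lay the other way, with a mean of 0.542 ± 0.436 CPM over the WT libraries against 0.181 ± 0.144 CPM over those of CD47-. SIRPD, also not tested, was at 0.0575 ± 0.0682 and 0.121 ± 0.0864 CPM, near the limit of detection (SD, n = 10 each). Of the 10 tested genes nearest to SIRPG, 4 were higher, 0 lower and 6 not called. Over all genes 19.8% were higher and 20.6% lower, and these shares also stand beside the counts for the other members below. The 4 include SIRPA, which was tested only through CD47-. Beside SIRPA and SIRPB1 the higher ones were FKBP1A (0.31) and SDCBP2 (0.54), both well below the SIRP genes. Of the 10 nearest to SIRPA, 3 were higher and 1, IDH3B (-0.23), lower. Of the 10 nearest to CD47, LINC00882 was higher (1.08), and DUBR (-0.70), CIP2A (-0.44) and ENSG00000279277 (-0.80), which lies 3175 bases away, were lower. QPCTL had 1 of 10 called, GIPR (-0.64). SIRPG-AS1, antisense to SIRPG over 14965 bases, averaged 0.0485 CPM in WT and 0.072 CPM in CD47-, and ENSG00000276649, antisense to SIRPA over 208 bases, was lower still.

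**Figure D5:**
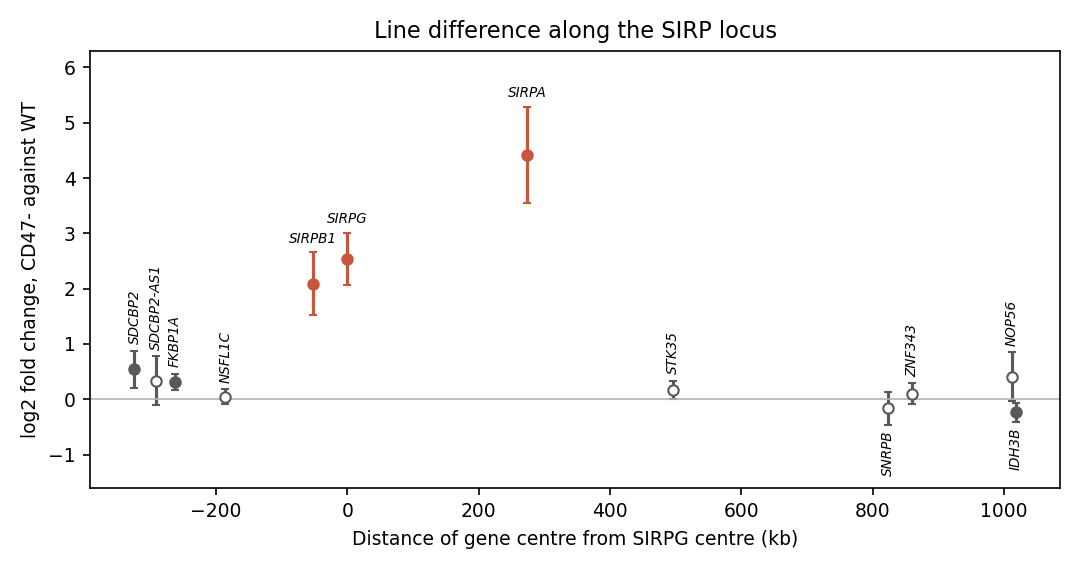
Log2 fold change of CD47- against WT for the tested genes around SIRPG, by distance of the gene centre from the SIRPG centre (kb), with bars of 2 SE, filled points called by edgeR and SIRP genes in red. Of the 3 tested SIRP genes, SIRPB1 and SIRPG stand at 2.09 and 2.54. SIRPA, drawn at 4.42, was tested only through CD47-, and its size rests on few WT counts. The other genes lie between -0.23 and 0.54.

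A list of 39 genes of CD47, SIRP and thrombospondin-1 biology was read in the same fit. Of the 30 tested, 8 were higher in CD47-, 11 lower and 11 not called, with a median of -0.13, against 19.8% higher, 20.6% lower and a median of -0.01 over all genes. Among 11 tested CD47 partners and ligands, 5 were lower and 1 higher. The integrin subunit ITGA4 was at -1.30 (adjusted p = 1.01e-08), ITGB3 at -0.76 (adjusted p = 0.00317) and UBQLN2 at -0.63, while the related ubiquilin UBQLN1 was at 0.19. THBS1, which encodes thrombospondin-1, was at -1.46 without a call (adjusted p = 0.129). Of 5 tested SIRP family and signaling genes, SIRPB1 and PTPN6, which encodes SHP-1, were higher (2.09 and 0.68), and FYB1, an adaptor, was lower (-1.32). PTPN11, which encodes SHP-2, and PTK2B were not called. In the nitric oxide and cGMP branch that thrombospondin-1 inhibits through CD47, both soluble guanylate cyclase subunits were lower, GUCY1A1 at -2.58 (adjusted p = 4.98e-07) and GUCY1B1 at -0.77, and NOS3 was higher at 0.93. Among other thrombospondin-1 receptors, LRP1 was higher at 0.94 and CALR lower at -0.71. B2M, another phagocytosis checkpoint gene, was lower at -1.23 (adjusted p = 6.24e-10), and CD24 was not called. Of 6 listed regulators of CD47 mRNA, MYC (1.15, adjusted p = 0.00673), ELAVL1 (0.31) and SET (0.30) were higher, HIF1A (-0.45) was lower, and NFKB1 and NRF1, whose motif the CD47 promoter holds, were not called.

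The genes whose levels ran most like those of the members over the 20 libraries were found among 13149 genes (13150 for SIRPA) by Pearson r of log2 CPM. They were DAAM2, TSHR and SLC44A1 for CD47 (r = 0.985, 0.983 and 0.983), GIMAP5, ADAMTS19 and NCS1 for SIRPG (0.991, 0.989 and 0.984), CCNJL, NECTIN2 and NYNRIN for SIRPA (0.967, 0.965 and 0.964) and UBA1, CCNL2 and FDFT1 for QPCTL (0.901, 0.899 and 0.896). After the mean of each line was subtracted, the nearest were NADK2, GNE and FAS for CD47 (0.946, 0.927 and 0.919), GIMAP5, CYREN and MCCC2 for SIRPG (0.966, 0.965 and 0.959), and CCNL2, RAB11FIP4 and SLC2A1 for QPCTL (0.897, 0.889 and 0.886). For SIRPA they were LINC01221, ANKRD10-IT1 and CTSK, at a lower likeness of 0.715, 0.694 and 0.679. The choice of genes depends on the measure. By Spearman's rho, 7 of these 8 sets of 3 kept 0 or 1 gene among the nearest 3, and the set of QPCTL over the 20 libraries kept 2. DAAM2 was then at rank 40 and SLC44A1 at rank 46 for CD47. The libraries share their line, time and depth, and the values describe likeness only.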

How the data were processed

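RNA from 20 libraries was sequenced with the TruSeq mRNA kit. Reads were trimmed by the authors (cutadapt 1.18) and mapped on GRCh38 by STAR 2.4.2a, and the authors deposited RSEM 1.3.3 expected counts per gene and isoform on GENCODE version 36. The strand setting is not given in the sources used here. The 2 columns of each table that belong to no sample were not used. Expected counts were rounded and tested with R 4.3.3 and edgeR 4.0.16 (quasi-likelihood, TMM factors, filterByExpr by line with minimum count 10 and minimum total count 15, Benjamini-Hochberg over all features tested, threshold 0.05). The lines were compared over 10 libraries each. Time and treatment were tested in 1 model with line by treatment and line by time terms and 8 residual degrees of freedom, and interactions were contrasts of that model. Isoform usage was tested with edgeR diffSpliceDGE. On simulated data this test called too many unchanged isoforms, so its calls are given with those of diffSplice in limma 3.58.1. CPM are scaled by TMM factors. TPM were computed from the deposited counts with GENCODE version 44 lengths, matched for 229321 isoforms, which hold 99.1 to 99.2% of counts. Promoters are from RefSeq (GRCh38.p14).

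Library totals of 16107921 to 31737616 counts set a floor of 0.0978 to 0.155 CPM at 3 counts, and counting intervals cover counting error only. Named genes were the members and those of their isoforms that passed the filter, at most the 3 smallest p in each direction of the gene list and of the 5 tested neighbours on each side, genes that overlap a member, and the 3 genes most like each member among those with a mean log2 CPM (pseudocount 0.5) of at least 1. Remaining isoforms and members of the list were added after their values were seen. The members and lists were chosen with earlier results of these data known. Libraries matched for treatment and time by their labels deviated together from the mean of their line, with a correlation of 0.126 to 0.602 in the 10 pairs. The matched library was the best match in only 2 of 10, and each best match was a library of the same time. These values therefore cannot tell pairing from shared time. The pairing by labels was used as a block in an alternative fit. Other alternatives were DESeq2 1.42.0, limma voom with quantile normalization, other scalings and filters, subsets of pairs, 1 line alone, and each library left out.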

Additional observations from a re-analysis of the deposited data

Results flagged for a closer look

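SIRPA in the 4 WT libraries at 1 h had 1 library, CD3+CD28, that stood apart from the others, at 0.0477 CPM against 0 in the other 3. That level is under the 3 counts taken as the limit of detection. Of the 40 groups of libraries tested in this way, 1 stood out, and chance flags about 1 in 20.

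The change of SIRPG with time differed between the lines by a test of the interaction in edgeR. The CD47- change minus the WT change was -0.862 on the log2 scale at 3 h (adjusted p = 0.0283) and -1.12 at 6 h (adjusted p = 0.00139). SIRPG was higher at 6 h than at 1 h in 3 of 3 libraries of each line.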

How the results depend on the processing

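Over 98 results and 2488 values under the alternatives, 2328 kept their side of the threshold, 124 lost and 36 gained a call, and no called value changed sign. Of the 2328, 36 values of 15 uncalled results had the opposite sign, among them CD47-203 between the lines with a block (0.304). The line differences of CD47 and SIRPG were called in every alternative run. SIRPA was also called, but it is tested only through the line where it is high, and its fitted value rests on few WT counts. Its fits at 1 time are not given, because the WT counts at each time are too few for a fold. With matched pairs as a block, QPCTL was at -0.453 (adjusted p = 0.00252) and SIRPG at 2.65. Of 22 results with a block, 10 were called in both fits, 9 in neither, and CD47-206, SIRPG-204 and QPCTL-207 gained a call. Under limma voom the calls were lost for CD47 in CD47- at 3 h (-0.103) and 6 h (-0.0625), CD47 in WT at 6 h (-0.0963) and the SIRPG interaction at 3 h (-0.812), and QPCTL in WT at 6 h gained one (-0.397). Without a filter, those lost were CD47 in CD47- (-0.236 at 3 h, -0.168 at 6 h), CD47 in WT at 6 h (-0.207) and QPCTL between the lines (-0.443). With 1 CPM in every library, CD47 in CD47- at 6 h was at -0.14 and QPCTL in WT at 6 h at -0.423, with 1 line alone at -0.145 and -0.416, and with upper-quartile factors at -0.124 and -0.432, and each time the former was lost and the latter gained. QPCTL in CD47- at 3 h was lost with 1 line alone (-0.58). QPCTL between the lines was also lost with no scaling (-0.341), in activated pairs (-0.436), in pairs without activation (-0.424), and at 3 h (-0.512) and 6 h (-0.247). Per length over all times, CD47-201 held 31.3% of CD47 in WT and 26.8% in CD47-, and CD47-202 held 19% and 17.7%, while CD47-206 held 30.4% and 33.5%. Taken by time, the mean of CD47-206 was above that of CD47-201 at 1 and 3 h but not at 6 h in both lines. With the longest isoform's length, CD47 was at 50.5 TPM in WT and 28.3 TPM in CD47-. By Spearman's rho, 7 of 8 sets of most similar genes kept 0 or 1 of 3. The filter of 1 CPM in every library leaves no value for SIRPA. The cause of these shifts was not tested.

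With each library left out in turn, CD47 in CD47- ranged from -0.299 to -0.181 at 3 h and from -0.2 to -0.106 at 6 h, and CD47 in WT at 6 h from -0.23 to -0.179. QPCTL ranged from -0.692 to -0.48 in CD47- at 3 h and from -0.508 to -0.386 in WT at 6 h, and the SIRPG interaction at 3 h from -1.07 to -0.709. In CD47- at 6 h, CD47-206 ranged from -1.7 to -1.01, its usage from -1.58 to -0.938, and CD47-202 usage from 0.652 to 1.04. Depth limits SIRPA in WT and the scarce isoforms of SIRPG and QPCTL.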
